A study of Homo sapiens with 6 samples.

Results

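HCT116 and SW620 are human colorectal cancer cell lines, and what follows describes how their transcriptomes differ. All 6 of the 6 libraries of the series were used, the 3 of HCT116 against the 3 of SW620, joined gene by gene. HCT116 came from a primary colon tumour and SW620 from a lymph node that held the metastasis of another patient's colon tumour, so each line stands for 1 tumour and the line cannot be told apart from its donor. For each line there was 1 control with the lentiviral vector pLKO. The other 2 libraries, titled A and B, came from cells with hairpin RNA against TEAD4, a TEA domain transcription factor. All 6 cultures grew in DMEM with serum. The series was made to find the genes that depend on TEAD4. The comparison here is between the lines, with the same make-up of control and knockdown libraries on each side. The labels do not say whether separate cultures gave the libraries of a line, or whether A and B are different hairpins. The spread between the libraries may thus be technical or may hold a difference between hairpins.

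Colorectal cancers differ in how they drive Wnt signalling, in whether DNA mismatch repair still works, and in how far they keep the features of colon epithelium. HCT116 is known for a stabilising mutation of beta-catenin and for defective mismatch repair. SW620 is known for a truncated APC protein and intact mismatch repair. In the crypts of the normal colon, Wnt signals keep stem cells dividing, and Hippo signalling holds back YAP and TAZ, which otherwise bind TEAD factors and switch on genes of adhesion and the cytoskeleton.

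Depth ran from 15778571 to 18859715 reads on named genes. Values below are normalized counts, that is reads divided by a size factor that makes the 6 libraries comparable. They are listed in the order control, knockdown library 1 and knockdown library 2, numbered as in the deposited columns. A log2 difference is the mean of log2(normalized count + 1) in SW620 minus that in HCT116 with knockdown as a further term. It is given with the moderated standard error of limma, which pools the 6 libraries, 3 a line, and draws on the other genes. A gene was called when its limma adjusted p (Benjamini-Hochberg) was under 0.05. Of 18759 genes tested, 9324 were called (49.7%), with 4479 higher in SW620 (23.9%) and 4845 higher in HCT116 (25.8%), so that 48.0% of the calls were higher in SW620. On the values as deposited, each line normalized on its own, the share was 60.2%, and the median gene stood at 0.25 (log2) in place of -0.03. A difference of at least 4-fold was called for 1872 genes higher in SW620 (9.98%) and for 2482 higher in HCT116 (13.2%). In 11292 genes (60.2%) the 3 libraries of a line did not overlap the 3 of the other (29.2% higher in SW620, 31% higher in HCT116), so a call or a lack of overlap is common and is not by itself particular to any gene below. The controls alone, 1 library against 1, gave the same sign for 9320 of the 9324 called genes. Both controls were in the fit that made the calls, so this agreement was largely built in and is not a separate check.

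The median gene differed by 0.87 to 1.15 (absolute log2) between a library of HCT116 and a library of SW620. Within a line the median gene differed by 0.41 to 0.57 between HCT116 libraries and by 0.23 to 0.29 between SW620 libraries. HCT116 knockdown library 1 stood apart from the other HCT116 libraries and lay nearer to SW620 than they did (0.87 to 0.92 against 1.07 to 1.15). Without it 10823 genes were called. Without the HCT116 control 5595 genes were called, and without the SW620 control 5466. In either fit the knockdown term takes up the control that remains. Both therefore give a gene the line difference of the knockdown libraries alone, and below they are not separate checks.

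The markers given for this comparison separated the lines in all 6 libraries. VIM, the intermediate filament protein of mesenchymal cells, stood at 64.5, 62.3 and 90.7 in HCT116 and at 3531, 2455 and 915 in SW620. The log2 difference was 4.78 ± 0.45 (limma adjusted p = 0.000127). SW620 thus held the higher VIM level, and the level spread more in SW620, where knockdown library 2 was lowest.

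CDH1, which encodes E-cadherin of adherens junctions, had normalized counts of 3098, 2663 and 2550.4 in HCT116 and 1421, 2037 and 1310.3 in SW620. All HCT116 libraries lay above all SW620 libraries, but by little, with a log2 difference of -0.82 ± 0.22 (limma adjusted p = 0.0163). Leaving out the HCT116 control gave a limma adjusted p of 0.128, leaving out the SW620 control 0.132 and leaving out knockdown library 2 of SW620 0.0799, so the call was lost each time. On the values as deposited the limma adjusted p was 0.0703.

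FLNC, an actin crosslinker of the filamin family, reached 32855, 6046 and 8923 in HCT116 and 61.2, 20.5 and 20.4 in SW620. Its log2 difference was -8.63 ± 0.24 (limma adjusted p = 2.94e-06), and the HCT116 mean was 469 times the SW620 mean. CTGF, the matricellular growth factor that is the textbook target of YAP and TEAD, had 3045, 248 and 246 in HCT116 and 76.1, 87.3 and 104 in SW620. Here the control of HCT116 stood far above its knockdown libraries, while the SW620 libraries lay close together. The log2 difference was -2.68 ± 0.70 (limma adjusted p = 0.0152) and -5.30 between the controls. Without the HCT116 control or without the SW620 control it was -1.37, the difference of the knockdown libraries alone, and was still called. TEAD4 itself had 395, 74.2 and 74.4 in HCT116 and 1022, 241 and 211 in SW620, so the knockdown libraries were lower than the control in each line as the labels say. The log2 difference between the lines was 1.52 ± 0.23 (limma adjusted p = 0.00137), though the HCT116 control lay above the SW620 knockdown libraries, and with line as the only term it was not called (limma adjusted p = 0.126).

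**Figure D1:**
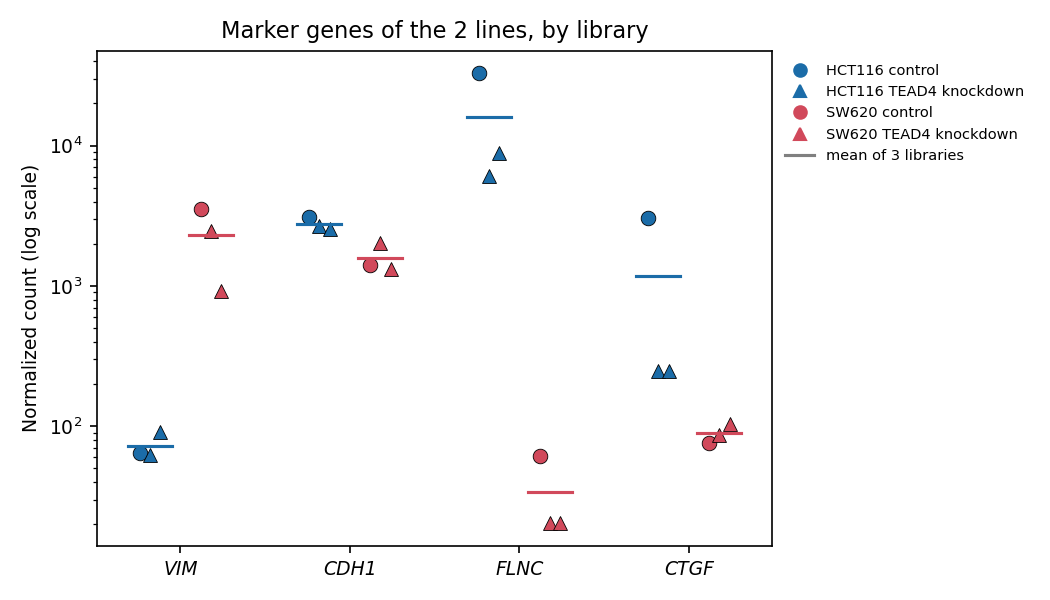
Normalized count (log scale) of VIM, CDH1, FLNC and CTGF in each of the 6 libraries, with circles for controls, triangles for TEAD4 knockdown libraries and a bar at the mean of 3 libraries. The lines do not overlap for any of these genes, and the gap is narrowest for CDH1, with 2550.4 in the lowest HCT116 library and 2037 in the highest SW620 library.

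The promoters of 3 of these YAP/TAZ-TEAD and actin genes and of a Wnt target, SP5, are shown because the text turns on differences in these gene groups. SP5, a zinc finger transcription factor, was picked for its motifs after its values were seen. The sequences are from RefSeq on GRCh38.p14, 250 bases before to 50 bases after the gene's start, 5′ to 3′ on the gene's strand. Capitals mark matches on either strand to GGAATG, the core that TEAD factors bind, in the first 3 and to CTTTGA, the core that TCF and LEF factors bind, in SP5. No matches overlapped.
CTGF, chr6:131951323-131951622, minus strand: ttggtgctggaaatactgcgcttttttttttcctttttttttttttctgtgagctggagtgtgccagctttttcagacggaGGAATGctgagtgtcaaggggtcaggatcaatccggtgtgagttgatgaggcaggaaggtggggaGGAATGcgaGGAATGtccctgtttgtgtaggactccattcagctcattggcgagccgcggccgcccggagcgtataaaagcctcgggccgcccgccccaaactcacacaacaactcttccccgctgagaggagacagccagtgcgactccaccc
ANKRD1, chr10:90921038-90921337, minus strand: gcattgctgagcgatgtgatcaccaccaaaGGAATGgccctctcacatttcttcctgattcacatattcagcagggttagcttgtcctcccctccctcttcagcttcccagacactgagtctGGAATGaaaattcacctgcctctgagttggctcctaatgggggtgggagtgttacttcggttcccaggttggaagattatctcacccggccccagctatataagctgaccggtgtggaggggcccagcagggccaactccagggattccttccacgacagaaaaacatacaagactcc
FLNC, chr7:128830156-128830455, plus strand: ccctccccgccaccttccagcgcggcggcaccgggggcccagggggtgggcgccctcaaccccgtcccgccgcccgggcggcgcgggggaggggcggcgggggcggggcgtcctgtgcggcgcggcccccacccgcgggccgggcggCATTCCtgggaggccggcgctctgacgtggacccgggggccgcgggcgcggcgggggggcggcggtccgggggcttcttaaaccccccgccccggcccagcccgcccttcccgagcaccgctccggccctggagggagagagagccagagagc
SP5, chr2:170715087-170715386, plus strand: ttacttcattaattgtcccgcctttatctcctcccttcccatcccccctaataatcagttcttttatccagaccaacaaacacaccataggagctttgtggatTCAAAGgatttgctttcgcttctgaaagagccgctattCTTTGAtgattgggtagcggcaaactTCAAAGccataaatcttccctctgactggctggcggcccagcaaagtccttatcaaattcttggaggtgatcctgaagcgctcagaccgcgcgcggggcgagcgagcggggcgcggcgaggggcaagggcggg
GGAATG occurred in 14.0% of 27305 promoters of this length on either strand, and in 7 of the 20 YAP/TAZ-TEAD target promoters that were found. Of the targets called higher in HCT116, 3 of 12 promoters held it, and of those called higher in SW620, 2 of 3. CTTTGA occurred in 13.1% of the same promoters and in 2 of the 25 found for the Wnt and stem cell list. A match is a run of letters only and says nothing of binding.

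The 10 genes farthest above HCT116 in SW620, among those with a mean of at least 500 normalized counts there, include brush border, junction and secreted proteins. VIL1, which encodes villin of the brush border, had 2.26, 0.989 and 0 in HCT116 and 4625, 5469 and 4395 in SW620. With only 3 reads in all of HCT116, the ratio of normalized reads was 4439 (95% counting interval 1519 to 21525). PROX1, a homeobox transcription factor that Wnt signals switch on in colon tumours, stood at 1.13, 2.97 and 5.81 against 8416, 9341 and 7451. IGFBP4, a secreted protein that binds insulin-like growth factors, stood at 7.92, 3.96 and 0 against 4770.2, 4649 and 4105. GJB1, the gap junction protein connexin 32, stood at 1.13, 2.97 and 1.16 against 3489, 3145 and 3421, and CLDN11, a claudin of tight junctions, at 1.13, 1.98 and 2.32 against 4437, 2964 and 2472. The others among the 10 largest were ASCL2, ADAMTSL2, PHYHIPL, SMOC2 and the potassium channel subunit KCNE3, and their log2 differences ran from 9.82 (KCNE3) to 10.79 (ASCL2).

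Toward HCT116, the largest difference was that of CPA4, a secreted carboxypeptidase, with 13352, 6659 and 10811 in HCT116 and 0.875, 10.7 and 0 in SW620 (log2 difference -11.78 ± 0.83, limma adjusted p = 3.8e-05). VCAN, the matrix proteoglycan versican, had 3351, 4617 and 5011 against 0, 2.67 and 0.925. PRSS8, the membrane serine protease prostasin of epithelia, had 1986, 743 and 2719 against 0.875, 1.78 and 0.925, so that here too the high line was HCT116. GTSF1, a factor of the germline piRNA pathway, had 1704, 1716 and 2004 against 0, 0.891 and 0. NLRP2, a NOD-like receptor, had 1147, 1298 and 1199.7 against 0, 0.891 and 0. MAGEA3, PCDH7, AMOTL1, ZNF264 and KCNK1 made up the rest of the 10.

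**Figure D2:**
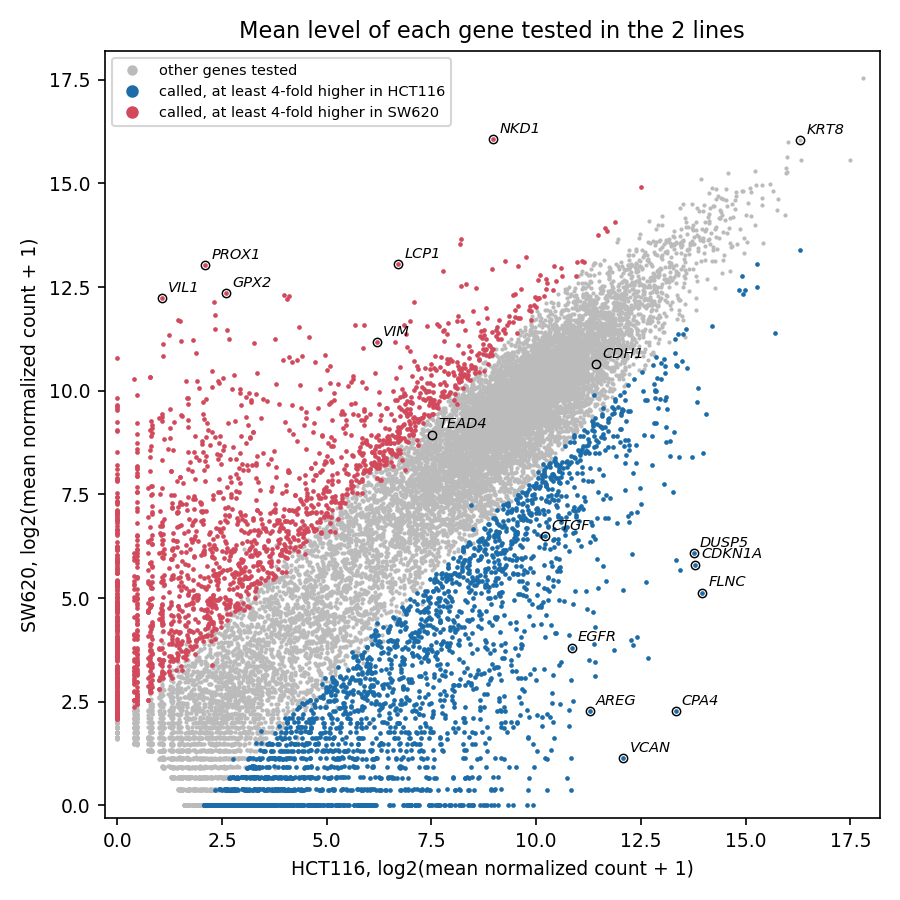
Mean level of each of the 18759 genes tested, log2(mean normalized count + 1), in HCT116 (horizontal) and SW620 (vertical), with genes called and at least 4-fold apart coloured by the higher line. Genes such as VIL1, PROX1 and NKD1 lie far above the diagonal and CPA4, VCAN and FLNC far below it, while KRT8 lies on it.

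Some genes had no read at all in a line. In 83 genes the 3 HCT116 libraries had 0 reads and each SW620 library had at least 20 normalized counts, and 91 genes showed the opposite. Of these, 60 and 81 were protein coding and 16 and 4 were long noncoding RNAs. ASCL2, the transcription factor that marks crypt stem cells, had 1549, 1911 and 1862 in SW620, at least 1627-fold higher when HCT116 is set to a floor of 3 reads over its 3 libraries. On the same floor SLC22A3, an organic cation transporter, was at least 828-fold higher in SW620 with 697, 914 and 1107. CDH13, or T-cadherin, was at least 729-fold higher with 925, 835 and 613. TFF3, the trefoil peptide of goblet cells, was at least 705-fold higher with 531, 807 and 976, and ST18, a zinc finger transcription factor, at least 736-fold. These 5 had the highest means of the 83.

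Among the 91 genes without a read in SW620, the zinc finger gene ZNF264 led with 887, 976 and 1049.7 in HCT116, at least 1083-fold higher there. KCNK1, a potassium channel, followed with 916, 836 and 878, at least 976-fold higher. BTBD11 had 1094, 463 and 517, so the control library was highest. The ubiquitin ligase RNF144A and the transporter SLC6A17 were at least 717-fold and 617-fold higher in HCT116. The median number of CpG dinucleotides in the 300-base promoter was 13.5 over 58 of the 83 genes and 18 over 71 of the 91, against 24 over 13781 of the genes tested.

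By reads, with no correction for length, EEF1A1, an elongation factor, took most reads in both lines, from 0.99% to 1.54% of a library. By the mean of the 3 libraries, the second gene of SW620 was NKD1, a feedback inhibitor of Wnt signalling. It had 71536, 81615 and 54239 in SW620 against 637, 447 and 421 in HCT116. In SW620 knockdown library 2 it lay below KRT8. NKD1 took from 0.345% to 0.486% of the reads of a SW620 library, and its log2 difference was 7.11 ± 0.22 (limma adjusted p = 3.45e-06). The rest of the top 5 of each line were cytoskeletal, translation and metabolic genes and, in HCT116, the chaperone HSPA5 with 144731, 16621 and 78943 against 10172, 11919 and 10293 in SW620. HSPA5 was called higher in HCT116 with a log2 difference of -2.42 ± 0.62 (limma adjusted p = 0.0136), with a wide spread among HCT116 libraries. The call was lost without the HCT116 control (0.134), the SW620 control (0.151) or HCT116 knockdown library 2 (0.0574), each a limma adjusted p.

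More Wnt targets and crypt stem cell genes were called higher in SW620 than in HCT116. Of 38 tested, 19 (50%) were called higher in SW620 and 9 (23.7%) higher in HCT116. All genes tested gave 23.9% and 25.8%, so the HCT116 share was near that of all genes. The median log2 difference was 0.92 against -0.03 over all genes. Beside NKD1, the negative regulator AXIN2, a standard readout of Wnt signalling, had 223, 547 and 108 in HCT116 and 6856, 7235 and 3569 in SW620. LGR5, the receptor that marks crypt stem cells, had 5.66, 3.96 and 4.65 and 1068, 1499 and 1234. SMOC2, a secreted protein of the stem cell signature, had 2.26, 0 and 1.16 and 1543, 1376 and 2599. The groups lay far apart in each of these genes, with log2 differences of 4.56 ± 0.56 for AXIN2 and 7.78 ± 0.33 for LGR5 (limma adjusted p = 0.000451 and 8.65e-06). APCDD1, a Wnt inhibitor at the membrane, had 0, 0.989 and 1.16 against 1408, 2080.4 and 368, and TDGF1, the Nodal co-receptor Cripto, had no read in HCT116 and 261, 359 and 263 in SW620. SP5 had 13.6, 46.5 and 8.14 in HCT116 and 2926, 2578 and 1989 in SW620 (log2 difference 7.06 ± 0.57, limma adjusted p = 6.63e-05). In the other direction, CD44, the hyaluronan receptor that also serves as a mesenchymal and Wnt marker, had 10395, 11837 and 10497 in HCT116 and 368, 287 and 354 in SW620. CTNNB1, which encodes beta-catenin, was not called (9983, 9721 and 6685 against 10459, 12158 and 14469.9), although all SW620 libraries lay above the HCT116 libraries.

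Of the 23 intestinal transcription factors tested, 8 were called higher in SW620 and 5 higher in HCT116, with a median of 0.03. These were 34.8% and 21.7%, against 23.9% and 25.8% of all genes tested, so the HCT116 share was near that of all genes. The median was 0.47 between the controls, 0.40 for genes with a mean of at least 10, 0.41 without HCT116 knockdown library 1 and 0.13 without library 2, and 0.09 and 0.11 without SW620 knockdown library 1 or 2. FOXA2, a pioneer factor of endoderm, had 1.13, 2.97 and 2.32 in HCT116 and 1269, 1205 and 1151 in SW620. SOX2, a factor of foregut and stem cells, had 1.13, 6.93 and 0 against 2476, 1905 and 1424. MYB, a factor of dividing crypt cells, was likewise higher in SW620 (log2 difference 5.60 ± 0.30, limma adjusted p = 1.65e-05). In the other direction, NR5A2, a nuclear receptor of crypts, had 35.1, 72.2 and 16.3 in HCT116 and no read in SW620. CDX2, the master factor of intestinal identity, was found in both lines and not called, with 92.8, 229 and 102 against 243, 375 and 82.4. Its paralogue CDX1 had 0 reads in all 6 libraries.

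Of the genes of enterocytes, goblet cells and colon differentiation, 37 were tested, 15 were called higher in SW620 and 7 higher in HCT116. That is 40.5% and 18.9%, against 23.9% and 25.8% of all genes tested. The median log2 difference was 0.70, but it was -0.19 between the controls alone. Without the HCT116 control it was 1.73 and without the SW620 control 0.86. Both fits give a gene the same difference, so these medians differ only through which genes pass the filter. With a pseudocount of 4 the median was 0.34, with no filter 0.31 and for genes with a mean of at least 10 it was 3.09. It was 1.13 by edgeR and 1.21 by DESeq2. VIL1 and TFF3 led. MUC13, a membrane mucin, had 3.39, 8.9 and 5.81 in HCT116 and 748, 661 and 445 in SW620, and CA9, a carbonic anhydrase that hypoxia induces, had 2.26, 8.9 and 5.81 and 666, 1471 and 1048. CDH17, the cadherin of intestinal epithelium, had 14.7, 13.9 and 9.3 and 46.4, 167 and 186, with the SW620 control lowest of its line. The cytosolic carbonic anhydrase CA2 went the other way, with 950.4, 470.0 and 609 in HCT116 and 7.87, 17.8 and 5.55 in SW620, and so did KRT20, the keratin of differentiated colon cells, with 46.4, 58.4 and 51.1 and 17.5, 7.12 and 6.48.

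Among HOX genes, which set position along the body axis, 21 of 36 tested (58.3%) were called higher in SW620 and 0 higher in HCT116. Over all genes tested the shares were 23.9% and 25.8%. The counts per cluster were 4 of 11 in HOXA, 6 of 9 in HOXB, 8 of 9 in HOXC and 3 of 7 in HOXD. HOXD9 had 2.26, 1.98 and 5.81 in HCT116 and 439, 516 and 462 in SW620. HOXC10 had 30.5, 30.7 and 13.9 and 639, 576 and 582, and HOXC11 had 4.53, 0.989 and 9.3 and 147, 120.2 and 113. HOXC8 had 9.05, 44.5 and 10.5 and 214, 235 and 201, so HCT116 knockdown library 1 was the highest of its line. The SW620 libraries of these genes lay within a narrow band, and the median over the list was 1.51. The count called higher in SW620 was 12 without the HCT116 control and 11 without the SW620 control. HOX genes of a cluster are neighbours and not independent of each other.

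Neuroendocrine and neuronal genes split, with 8 of 26 called higher in SW620 and 10 higher in HCT116. The shares were 30.8% and 38.5%, against 23.9% and 25.8% of all genes tested. CHGB, a granin of secretory granules, had 3.39, 4.95 and 4.65 in HCT116 and 434, 697 and 2479 in SW620, highest in SW620 knockdown library 2. NRCAM, a neuronal adhesion molecule, had 5.66, 5.94 and 5.81 against 194, 387 and 618. MAP2, a microtubule protein of neurons, went the other way with 1264, 571 and 488 against 3.5, 7.12 and 4.63. The count higher in HCT116 was 4 without the control of either line and 6 without SW620 knockdown library 1, and the count higher in SW620 was 5 without HCT116 knockdown library 2.

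**Figure D3:**
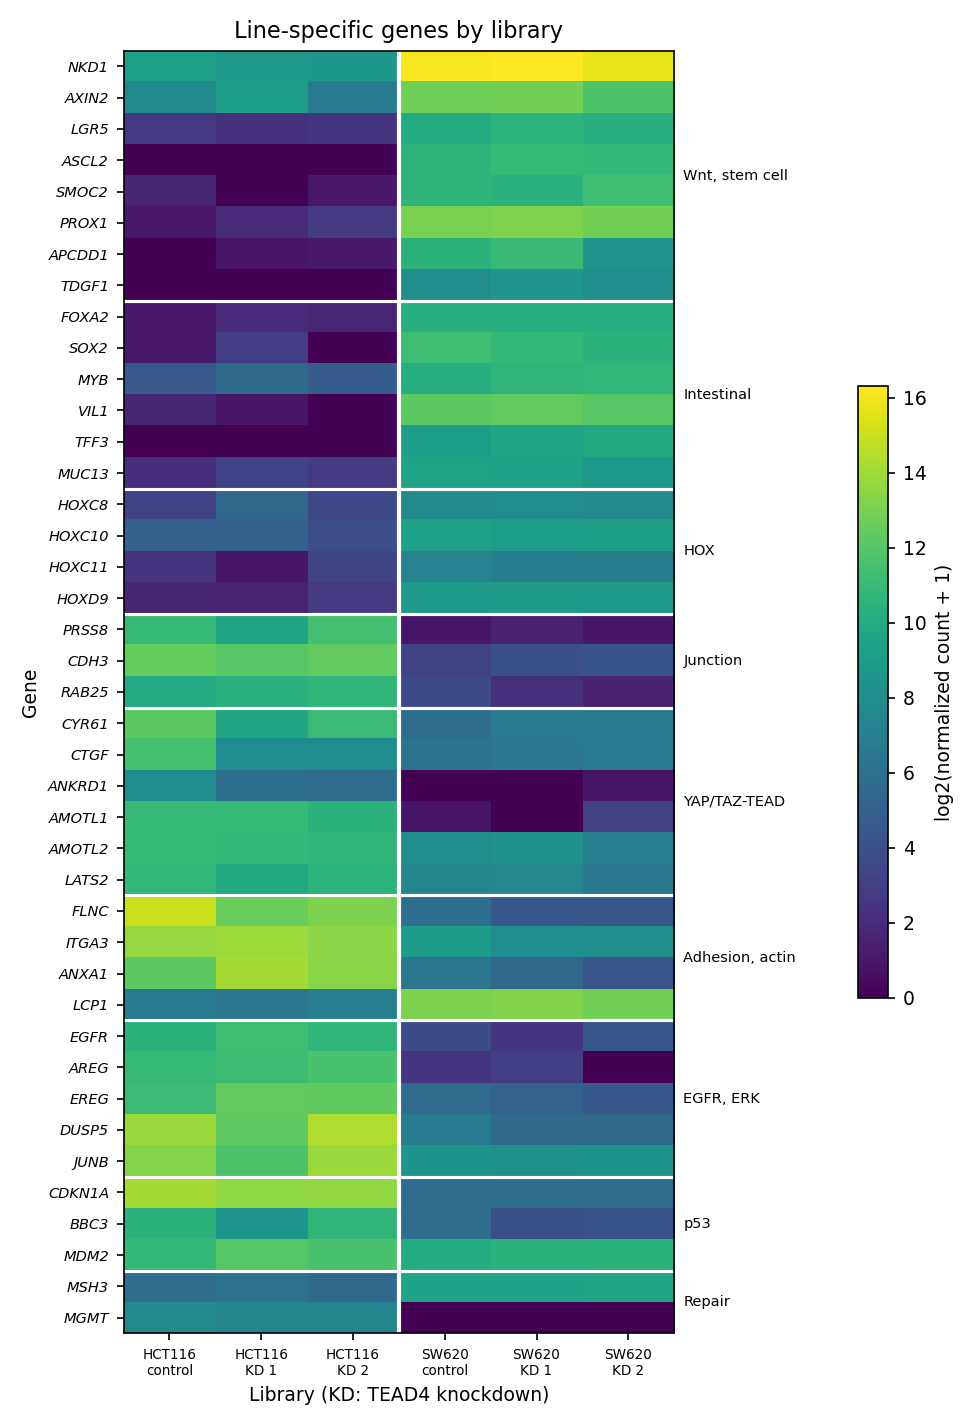
Level of chosen genes, log2(normalized count + 1) by colour, in each of the 6 libraries (columns), grouped by list (rows). The Wnt, stem cell, intestinal and HOX genes chosen are bright in the SW620 columns. The junction, YAP/TAZ-TEAD, adhesion and actin, EGFR and ERK, and p53 target genes chosen are brighter in the HCT116 columns, apart from LCP1. MDM2 is bright in both lines. Of the repair genes, MSH3 is brighter in SW620 and MGMT in HCT116. The choice does not stand for whole lists, several of which hold members that went the other way, such as CD44, NR5A2 and FOXF2.

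Epithelial genes as a group were higher in HCT116. Of 45 genes of junctions, adhesion and epithelial splicing, 30 (66.7%) were called higher in HCT116 and 7 (15.6%) higher in SW620, with a median of -1.06. All genes tested gave 25.8% and 23.9%. CDH3, or P-cadherin, had 5518, 4273 and 5351 in HCT116 and 7.87, 15.1 and 17.6 in SW620. MAL2, which acts in apical transport, had 3796, 7950.1 and 7835 and 5.25, 12.5 and 14.8. RAB25, a small GTPase of epithelial recycling, had 1012, 1332 and 1654 and 11.4, 3.56 and 1.85. These 3 were named for the size of their difference, and their log2 differences ran from -9.14 (MAL2) to -7.91 (RAB25). EPCAM, the pan-epithelial surface marker, was not called, with 4220.3, 2815 and 6077 in HCT116 and 6256, 7523 and 5874 in SW620.

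Of 19 keratins, the intermediate filament proteins of epithelia, 9 (47.4%) were called higher in HCT116 and 1 (5.3%) higher in SW620. Against this stood 25.8% and 23.9% of all genes tested. KRT8, the main keratin of simple epithelia, was not called, with 103927, 61969 and 75534 in HCT116 and 67433, 78867 and 56115 in SW620. KRT15, a keratin of basal cells, had 634, 208 and 728 and 62.97, 55.2 and 12.96. KRT13, of stratified epithelia, had 39.6, 58.4 and 62.8 in HCT116 and no read in SW620.

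Mesenchymal markers and factors of epithelial-mesenchymal transition did not follow VIM as a group. Of 26 tested, 13 (50%) were called higher in HCT116 and 3 (11.5%) higher in SW620, with a median of -1.68 (-1.06 with a pseudocount of 4). Over all genes tested the shares were 25.8% and 23.9%. COL6A2, a chain of collagen VI, had 3567, 2157 and 2385 in HCT116 and 147, 29.4 and 76.8 in SW620. NT5E, the ectonucleotidase CD73, had 1394, 1869 and 1223 and 62.97, 17.8 and 75.9. TWIST1, a transcription factor of the transition, was low in HCT116 at 39.6, 37.6 and 36.04 and had no read in SW620. CDH2, or N-cadherin, was low in both lines at 13.6, 6.93 and 22.1 and 2.62, 0 and 0.925. ZEB1, the repressor of CDH1, was higher in SW620, with 197, 129 and 68.6 in HCT116 and 359, 306 and 296 in SW620 (log2 difference 1.40 ± 0.33, limma adjusted p = 0.00955, and 0.0506 without SW620 knockdown library 1). VIM and ZEB1 were thus among the 3 members higher in SW620.

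YAP/TAZ-TEAD targets were mostly higher in HCT116. Of 26 tested, 17 (65.4%) were called higher in HCT116 and 3 (11.5%) higher in SW620, with a median of -2.61 (-2.49 between the controls). All genes tested gave 25.8% and 23.9%. CYR61, a matricellular relative of CTGF, had 4782, 817 and 2237 in HCT116 and 56.9, 101 and 108 in SW620. ANKRD1, a nuclear ankyrin repeat protein, had 239.9, 58.4 and 51.1 in HCT116 and 1 read in all of SW620, a ratio of 383 (95% counting interval 68.2 to 15164). Both were highest in the HCT116 control, and the knockdown libraries of HCT116 still lay above every SW620 library. AMOTL1, an angiomotin-like protein that binds YAP, had 1921, 1919 and 1432 against 0.875, 0 and 7.4, and GLI2, a Hedgehog transcription factor, had 122, 257 and 103 against 1.75, 0 and 0.925. FOXF2, a forkhead factor on the same list, had no read in HCT116 and 152, 172 and 132 in SW620.

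Among the TEAD factors, YAP, TAZ and the Hippo pathway, 11 of 22 were called higher in HCT116 and 5 higher in SW620. That is 50% and 22.7%, against 25.8% and 23.9% of all genes tested. WWTR1, which encodes TAZ, had 1810.3, 3489 and 2025 in HCT116 and 568, 325 and 191 in SW620 (log2 difference -2.83 ± 0.41, limma adjusted p = 0.000995). YAP1 was not called, with 1670.0, 2971 and 2941 against 7549, 8619.8 and 2679.8, where SW620 knockdown library 2 overlapped HCT116. It was called higher in SW620 by edgeR (adjusted p = 0.0305) and DESeq2 (adjusted p = 0.0085), and by limma without SW620 knockdown library 2 (adjusted p = 0.00266). TEAD1 was not called either, with 4553, 2113 and 4298 against 7612, 7613 and 4052. TEAD3 had 565, 799 and 588 against 239, 217 and 221, higher in HCT116. LATS2, the kinase that phosphorylates YAP and is itself a target, had 1761, 952 and 1527 against 171, 187 and 90.7, and AMOTL2 had 1927, 1872 and 1703 against 262, 313 and 137.

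Genes of actin crosslinking, focal adhesion and caveolae were called higher in HCT116 in 24 of 43 (55.8%) and higher in SW620 in 7 (16.3%). Against this stood 25.8% and 23.9% of all genes tested. The list's median was -1.03, but -0.66 between the controls and -0.65 without SW620 knockdown library 2. ANXA1, a calcium-dependent membrane binding protein, had 4722, 17849.5 and 10808 in HCT116 and 85.7, 45.4 and 18.5 in SW620. LCP1, the plastin of blood cells that many carcinomas also express, had the opposite pattern with 99.6, 87.1 and 124 and 8575, 9770.4 and 7241. FLNA, the common filamin, was not called (32034, 18257 and 38753 against 17900.1, 18755 and 9429), unlike FLNC.

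Integrin and laminin subunits were called higher in HCT116 in 16 of 26 (61.5%) and higher in SW620 in 5 (19.2%). Over all genes tested the shares were 25.8% and 23.9%. ITGA3, a laminin receptor subunit, had 13802, 15245 and 11352 in HCT116 and 487, 248 and 277 in SW620. ITGB6, an epithelial integrin subunit that activates TGF-beta, was higher in SW620, with 3.39, 0 and 1.16 and 115, 68.6 and 66.6.

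Matrix proteases, their inhibitors and the plasminogen activator system were called higher in HCT116 in 19 of 27 (median -2.43) and higher in SW620 in 2. That is 70.4% and 7.4%, against 25.8% and 23.9% of all genes tested. PLAUR, the urokinase receptor, had 1151, 1232 and 1877 in HCT116 and 64.7, 73.03 and 45.3 in SW620. KLK10, a secreted kallikrein, had 247, 521 and 274 and 13.99, 4.45 and 0.925. TMPRSS2, a membrane serine protease, was higher in SW620 with 5.66, 0.989 and 0 and 827, 875 and 757.

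Receptors and ligands of the EGF family were mostly higher in HCT116, in 11 of 17 tested (64.7%) against 3 (17.6%) higher in SW620. All genes tested gave 25.8% and 23.9%. The list's median was -2.65, and -1.70 with a pseudocount of 4. EGFR, the receptor, had 1402, 2400.4 and 1706 in HCT116 and 13.1, 4.45 and 21.3 in SW620 (log2 difference -7.23 ± 0.52, limma adjusted p = 4.25e-05). Its ligands amphiregulin and epiregulin followed: AREG had 1978, 2300.4 and 3199 and 4.37, 7.12 and 0, and EREG had 2258, 5494 and 5093 and 51.6, 33.8 and 21.3. ERRFI1, an inhibitor of the receptor, had 14296, 16164 and 20642 and 799, 719.6 and 572. In each of the 4 genes the lowest HCT116 library stood above the highest SW620 library, as in 31% of all genes tested. All 4 were named for the size of their difference, so this was largely built in.

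Targets and feedback genes of the ERK pathway were called higher in HCT116 in 12 of 24 (50%) and higher in SW620 in 5 (20.8%). Against this stood 25.8% and 23.9% of all genes tested. DUSP5, a phosphatase that acts on ERK, had 15117, 4889.8 and 21645 in HCT116 and 104, 46.3 and 49.97 in SW620, lowest in HCT116 knockdown library 1 within its line. JUNB, an AP-1 subunit, had 9798, 3415 and 14972 and 353, 322 and 353. SPRY2, an inhibitor of receptor tyrosine kinase signals, was higher in SW620 with 79.2, 141 and 76.7 and 1574, 1169 and 1077.

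Of 29 FGF, IGF and KIT receptors and ligands, 11 were called higher in HCT116 and 8 higher in SW620. These shares were 37.9% and 27.6%, against 25.8% and 23.9% of all genes tested, so the SW620 share was near that of all genes. FGFR2, an FGF receptor, had 863, 522 and 459 in HCT116 and 7.0, 0.891 and 3.7 in SW620, and KITLG, the ligand of KIT, had 6939, 9935 and 8504 and 172, 187 and 289. Both were higher in HCT116, whereas IGFBP4 was higher in SW620. The count higher in SW620 was 4 without the control of either line and 5 without SW620 knockdown library 2.

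Of 34 genes of the TGF-beta and BMP pathway, 16 (47.1%) were called higher in HCT116 and 7 (20.6%) higher in SW620. Over all genes tested the shares were 25.8% and 23.9%. SMAD4, the shared signal transducer of the pathway on chromosome 18, had 1326, 1377 and 1336 in HCT116 and 32.4, 28.5 and 54.6 in SW620 (log2 difference -5.15 ± 0.30, limma adjusted p = 2.01e-05). ID3, an inhibitor of differentiation that BMP signals induce, had 1681, 1492 and 1290.3 and 20.1, 26.7 and 42.6. INHBB, an activin subunit, was higher in SW620, with 73.5, 54.4 and 23.2 and 2713, 3896 and 2547.

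Genes of the p53 pathway, mostly its targets, were called higher in HCT116 in 25 of 34 list members (73.5%). Those called higher in SW620 numbered 2 (5.9%), and the median was -1.48. All genes tested gave 25.8% and 23.9%. CDKN1A, the cell cycle inhibitor p21, had 17877, 11794 and 12713 in HCT116 and 55.1, 55.2 and 54.6 in SW620, a log2 difference of -7.96 ± 0.19 (limma adjusted p = 2.38e-06). The apoptosis gene BBC3, which encodes PUMA, had 1418, 361 and 1661 and 55.1, 15.1 and 16.7. MDM2, a ubiquitin ligase of the pathway, had 1899.7, 4209 and 3223 and 1044, 1448 and 1439.9.

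The list of DNA mismatch repair genes also holds the direct repair enzyme MGMT. In it, 5 of 10 (50%) were called higher in SW620 and 2 (20%) higher in HCT116. Against this stood 23.9% and 25.8% of all genes tested. MSH3, which acts in the recognition of looped-out bases, had 56.6, 71.2 and 47.7 in HCT116 and 677, 704 and 799 in SW620 (log2 difference 3.63 ± 0.26, limma adjusted p = 4.29e-05). MGMT, which removes alkyl groups from guanine, had 212, 163 and 164 in HCT116 and no read in SW620, at least 199.7-fold higher in HCT116.

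Genes of antigen presentation by MHC class I were called higher in HCT116 in 8 of 22 and higher in SW620 in 4. HLA-B had 6876, 3982 and 5129.9 in HCT116 and 469.7, 388 and 369 in SW620, and HLA-E had 5434, 3487 and 4994 and 974, 591 and 614. PSMB8, a subunit of the immunoproteasome, was higher in SW620 with 12.4, 12.9 and 8.14 and 277, 300.1 and 317, while its partner PSMB9 was higher in HCT116 with 208, 172 and 187 and 48.98, 56.1 and 50.9. Of the MHC class II genes 7 of 13 (53.8%) were called higher in HCT116 and 0 in SW620. HLA-DRB1 had 535, 118 and 86.02 in HCT116 and no read in SW620, and HLA-DRA had 184, 119 and 60.4 and 0, 0 and 0.925. Both were highest in the HCT116 control. HLA genes share sequence, and how the authors counted shared reads is not given in the sources used here.

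Interferon-stimulated genes were called higher in HCT116 in 17 of 38 (44.7%) and higher in SW620 in 6 (15.8%). Over all genes tested the shares were 25.8% and 23.9%. HERC5, the ligase that attaches ISG15, had 549, 296 and 352 in HCT116 and 0, 0 and 1.85 in SW620. MX2, an antiviral GTPase, had the opposite order with 1.13, 3.96 and 0 and 108, 81.04 and 58.3. Without the control of either line, the interferon-stimulated genes called higher in HCT116 numbered 10. NF-kB and inflammatory genes were called higher in HCT116 in 15 of 27 (55.6%) and higher in SW620 in 3 (11.1%). NFKB2, a subunit and target of NF-kB, had 5534, 4020.1 and 5649.5 in HCT116 and 309.6, 273 and 186 in SW620, and IL18, a cytokine of epithelia, had 817, 1347 and 1326 and 13.99, 9.8 and 2.78.

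Cancer-testis and oncofetal genes were called higher in HCT116 in 12 of 23 tested (52.2%) and higher in SW620 in 1 (4.3%). All genes tested gave 25.8% and 23.9%. MAGEA3, a testis antigen with near-identical relatives that may share its reads, had 1923, 1777 and 1391 in HCT116 and 0, 1.78 and 0 in SW620. PRAME, a testis antigen too, had 759, 877 and 807 and 7.0, 3.56 and 7.4. The member higher in SW620 was IGF2BP1, an oncofetal RNA-binding protein, with 55.4, 58.4 and 61.6 and 3001, 3312 and 2869.

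Glutathione, NRF2 and xenobiotic genes divided, with 10 of 37 called higher in SW620 and 13 higher in HCT116. The shares were 27.0% and 35.1%, against 23.9% and 25.8% of all genes tested. GPX2, the glutathione peroxidase of the gut, had 4.53, 4.95 and 5.81 in HCT116 and 5363, 3728 and 6637 in SW620. GSTT1, a glutathione transferase, had 1 read in all of HCT116 and 519.5, 503 and 457 in SW620. CYP26B1, which breaks down retinoic acid, was higher in HCT116 with 859, 475 and 472 and 13.99, 0.891 and 0.925. Without the control of either line, 8 members were called higher in HCT116, and on the values as deposited the counts were 12 for SW620 and 11 for HCT116.

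**Figure D4:**
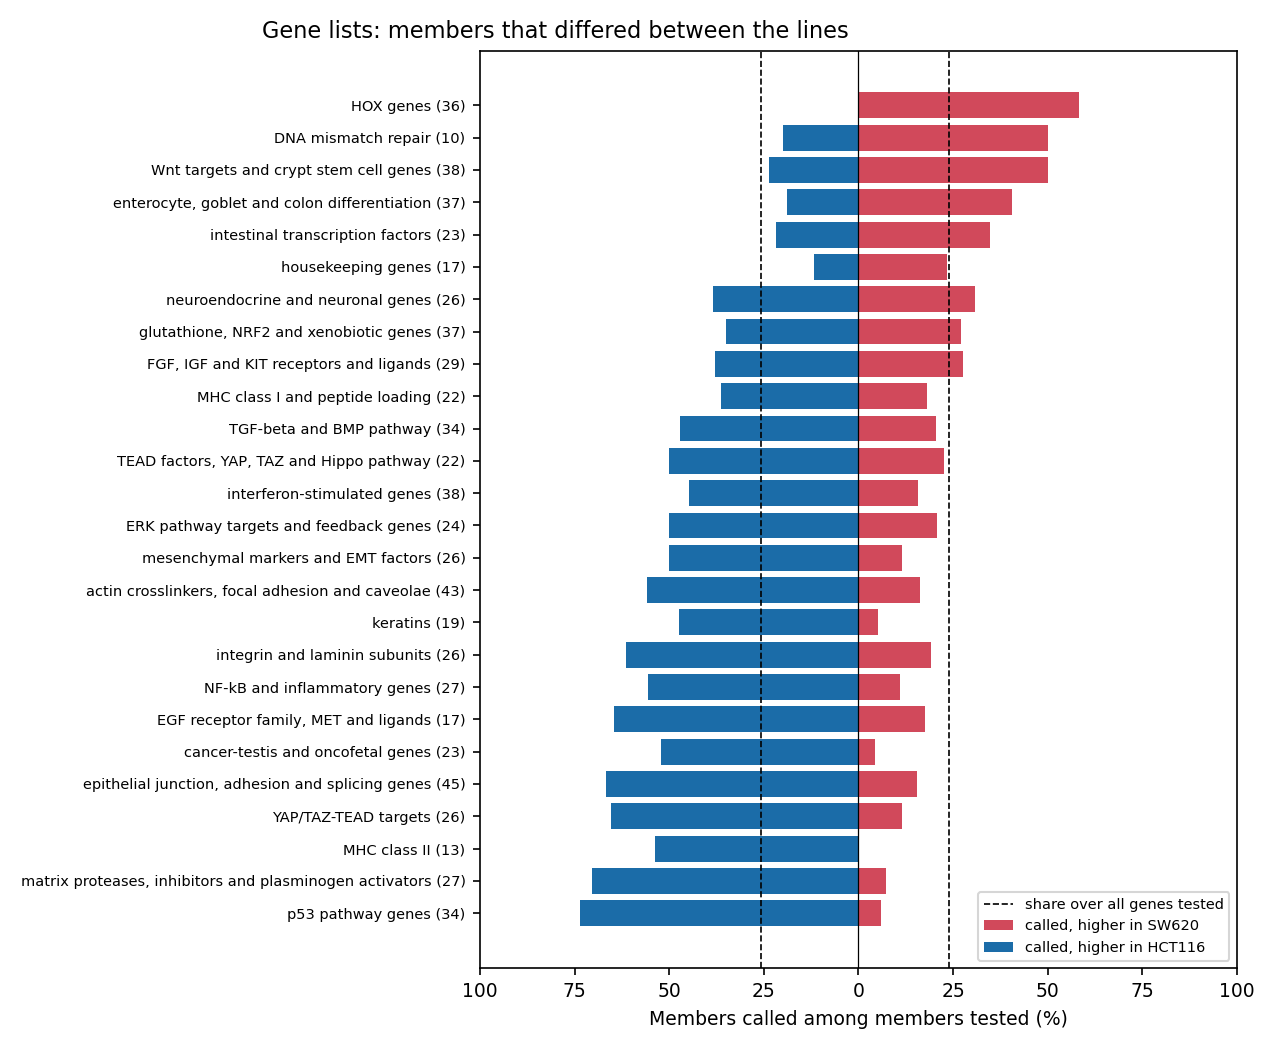
Share of the tested members of each gene list (number in brackets) called higher in SW620 (right, red) or in HCT116 (left, blue), with dashed lines at the shares over all genes tested (23.9% and 25.8%). HOX genes extend farthest to the right and p53 pathway genes farthest to the left.

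As a reference, 4 of 17 housekeeping genes were called higher in SW620 and 2 higher in HCT116, with a median of 0.25. Their shares were 23.5% and 11.8%, against 23.9% and 25.8% of all genes tested. The median was 0.14 without the control of either line and 0.15 without HCT116 knockdown library 1. TFRC, the transferrin receptor, had 8480.2, 8143 and 7989.5 in HCT116 and 17316, 19769 and 20244 in SW620. YWHAZ, a signalling adaptor, had 39496, 35149 and 40789 and 17372, 15519.9 and 16219. Without HCT116 knockdown library 1 the counts were 4 and 5.

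Markers of other cell types were summed over 10 fibroblast, 10 leukocyte and 6 endothelial genes. Summed fibroblast markers came to 506 to 1081 in HCT116 libraries and 607 to 1006 in SW620 libraries. In HCT116 this was mainly COL1A1, a collagen I chain (897, 492 and 1065 against 182, 105 and 92.5 in SW620), and in SW620 mainly LUM, the proteoglycan lumican (0, 2.97 and 1.16 in HCT116 against 640.2, 441 and 557). COL1A2, the partner chain of COL1A1, stood at 2.26, 0 and 1.16 in HCT116. Summed leukocyte markers came to 298 to 1296 in HCT116 and 173 to 285 in SW620, most of it CD68, a lysosomal protein (1211, 270.1 and 1162 and 139.9, 106 and 105). The call of CD68 was lost without the HCT116 control (limma adjusted p = 0.0555) and without the SW620 control (0.06). PTPRC, the common leukocyte antigen, had 3.39, 0.989 and 0 and 0, 0 and 0. Summed endothelial markers came to 27.9 to 64.3 and 15.7 to 42.9. Their part in the results was not tested.

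By chromosome, the line difference was uneven. The 244 genes tested on chromosome 18 had a median log2 difference of -0.87 (-0.82 between the controls), with 47.5% called higher in HCT116 and 13.9% higher in SW620. On chromosome 8 the median was -0.61 over 614 genes, with 41.04% and 11.9%. Chromosome 4 (-0.43) and chromosome 19 (-0.40) also leaned toward HCT116. Chromosome X (0.60), chromosome 13 (0.52) and chromosome 20 (0.35) leaned toward SW620, with 40.4%, 38.9% and 32.5% of their genes called higher there. With genes of a mean of at least 100 normalized counts alone, the medians were -0.78 on chromosome 18, -0.50 on chromosome 8, -0.41 on chromosome 19, 0.62 on chromosome 13, 0.39 on chromosome 20 and 0.64 on chromosome X. Chromosome 4 then stood at -0.24. Relative to all genes, chromosome 18 stood at -0.77, -0.88 and -0.81 between the control libraries, knockdown libraries 1 and knockdown libraries 2, so it was lower in SW620 in each. SMAD4 lies on chromosome 18, as does the SERPINB5 gene of a p53-induced serpin, with 1521, 1902 and 1437 in HCT116 and 33.2, 17.8 and 37.01 in SW620. Copy number was not measured in these data.

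**Figure D5:**
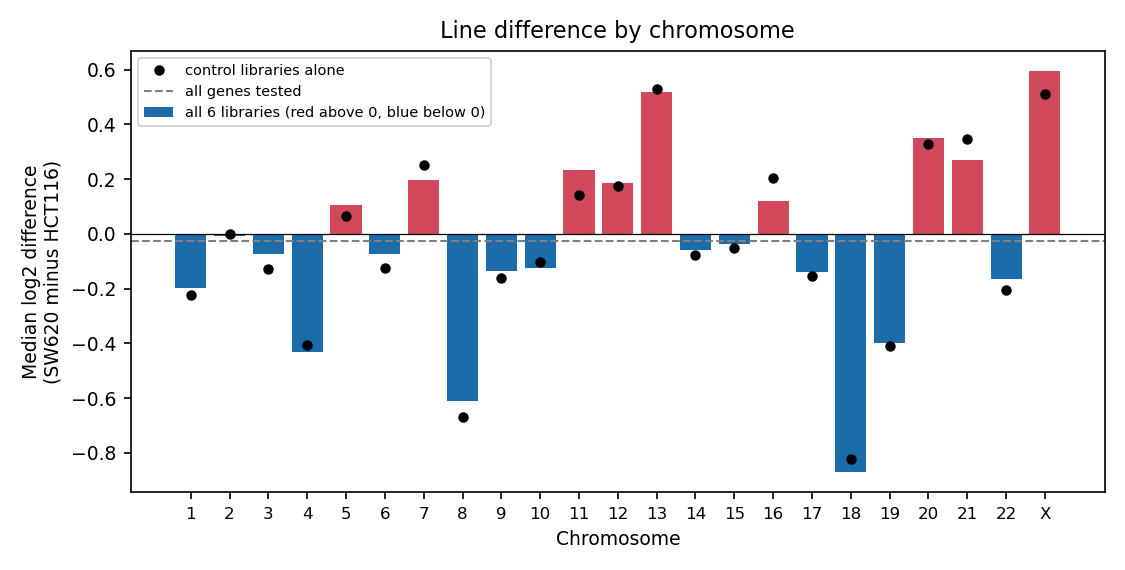
Median log2 difference (SW620 minus HCT116) of the genes tested on each autosome and on X, as bars for all 6 libraries and points for the control libraries alone, with a dashed line at the median of all genes (-0.03). Chromosomes 18 and 8 reach lowest and chromosomes X and 13 highest.

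The effect of TEAD4 knockdown was compared between the lines only as a check. Of 18759 genes, 0 had a limma adjusted p under 0.05 for the difference of the knockdown effect between the lines, 426 had an unadjusted p under 0.05, and no other tool was run on it. With 2 residual degrees of freedom this does not show that the effects were alike.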

How the data were processed

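RNA was sequenced from 6 libraries of HCT116 and SW620 cells, made with the TruSeq RNA kit from Trizol extracts, per the labels' protocols. The authors deposited 1 table per line with a signal per library, the normalized count, in which a library's reads are scaled by 1 factor, as its deposited values show. The submitters' processing notes name Bowtie 0.12.2 and the build hg18 without a role, and the gene counter is not given in the sources used here. The kit keeps no strand, so reads of overlapping antisense genes cannot be told apart.

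Dividing each column by its smallest value above 0 gave whole reads for 100% of the values (tolerance 1e-06). Tables were joined by gene name after 28 features with date-like names were dropped (0.232% to 0.262% of reads), which left 26336 genes, of which 25164 (95.5%) matched RefSeq symbols, used for chromosome and promoter only. Reads were normalized again over the 6 libraries with median-of-ratios size factors (0.860 to 1.14). Since the tables hold normalized values, limma 3.58.1 (R 4.3.3, eBayes with trend, two-sided) was run on log2(normalized count + 1) with terms for line and knockdown (3 residual degrees of freedom), for genes with a mean of at least 1. The fit was first tested on simulated data. Fold changes on this scale understate the change of low genes. Counting intervals and floors cover counting error only. Counts of same-line knockdown libraries differed beyond sampling noise (chi-square over its degrees of freedom 102 in HCT116 and 28.9 in SW620).

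Named genes are the markers and TEAD4, the 10 largest differences and 5 line-restricted genes a direction, the 5 genes with most reads a line, up to 5 called and 2 uncalled members a list, and textbook genes; not all of these are printed. SP5 and PTPRC were chosen after their values were seen. The 29 lists (814 of 815 symbols found) and the members were chosen with earlier results of these data known, so lists carry counts and medians and no test. Alternatives were TMM, total reads, the deposited values, other pseudocounts and filters, other models, edgeR 4.0.16, DESeq2 1.42.0 and leaving out each library.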

Additional observations from a re-analysis of the deposited data

How the results depend on the processing

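Of genes called, 9324 in all, the count was 8125 to 9786 with TMM factors, total reads, the deposited values, pseudocounts of 0.5 and 4, no filter or a mean of at least 10, line as the only term, edgeR (8770) and DESeq2 (8960). The replicate block by library number gave 9121. The deviations of same-numbered knockdown libraries correlated at -0.099 across genes, so no pairing by number was seen. With 2 knockdown libraries a line this cannot exclude a pairing. No gene called in both had the opposite sign under any alternative, but every alternative drew on these same libraries. In the model of 4 groups, the controls alone gave 2597 calls (1118 higher in SW620, 1479 in HCT116) and 218 called list genes, and the knockdown libraries alone gave 5473 (2539 and 2934). This model has 2 residual degrees of freedom, and a line's lone control is assumed to vary like the other groups. Leaving out 1 library gave 5466 to 10823 calls, with 2516 to 5258 higher in SW620 and 2950 to 5565 higher in HCT116. Among these fits, those without the HCT116 or the SW620 control are not separate checks, since both rest on the knockdown libraries alone. The median of chromosome 18 relative to all genes was -0.72 with a pseudocount of 4, -0.69 with no filter, -0.77 in the controls alone and -0.86 to -0.77 without 1 library. The cause was not tested. Of 119 called genes named in the text, 0 reversed, 115 kept the call without each library in turn and 96 kept it in the controls alone. Of 9 named genes that were not called, 7 were called under some alternative, so a missing call does not show that the lines were alike. KRT8, not called, reversed to 0.048 on the deposited values, and EEF1A1, not called, to 0.078 there and to 0.056 without HCT116 knockdown library 2 (range without 1 library -0.49 to 0.056). Genes with few reads are limited by depth, since a gene at 0 in a line may lie anywhere under the floor of 3 reads.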
